A study of Mus musculus with 2 samples.

Results

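The mRNAs described here are those of 36 nuclear genes, of 36227 in the deposited table, whose proteins are subunits of complex III, complex IV and ATP synthase or are cytochrome c, the carrier between complexes III and IV. The genes were chosen by name and were matched to their Ensembl identifiers, 9 in complex III, 1 for cytochrome c, 11 in complex IV and 15 in ATP synthase. They were measured in mature oocytes of ICR mice, an outbred stock, with 1 library from mothers of a slimming group and 1 from control mothers. Mothers of both groups had become obese by 12 weeks of age in ordinary cages. The slimming mothers then spent 4 weeks in enriched-environment cages, while the control mothers, labelled as fed a standard diet, stayed in normal cages. At 16 weeks, eggs that had ovulated naturally and stood at metaphase II were collected from 3 mothers per group, 3 from each, and the 9 oocytes of a group were lysed together and sequenced as 1 library. Because each group is 1 pool, every difference below describes these 2 libraries and not the conditions, and no p-value was computed. In such a pool, fewer cells and less RNA per cell cannot be told apart.

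The respiratory chain of the inner mitochondrial membrane passes electrons from complexes I and II through complex III and cytochrome c to complex IV, which hands them to oxygen. Complexes I, III and IV pump protons across the membrane, and ATP synthase uses their return to make ATP. Most subunits are encoded in the nucleus, a few in mitochondrial DNA. Mature oocytes carry very many mitochondria, which are inherited through the mother, and they use mitochondrial ATP rather than glycolysis for much of their energy.

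The promoters of many nuclear respiratory genes hold motifs of 3 factors known to act on this gene family, NRF1, GABP (an ETS factor) and YY1. Windows from 250 bases before to 50 bases after the start of transcription were taken from RefSeq (build GRCm38.p6), and 29 of the 36 genes had one, 32 windows in all. The letters searched on both strands were GCGCANGCG for NRF1, CCGGAAGT for ETS factors and AAGATGGC for YY1. NRF1 letters stood in 11 of the 32 windows (34.4%), against 6.25% of the 32851 windows in the RefSeq table. ETS letters stood in 4 (12.5%, against 3.89% of all windows) and YY1 letters in 3 (9.38%, against 2.75%). At least 1 of the 3 motifs was found in 16 windows (50%), against 11.8% of all windows. A match is a run of letters and was not tested as a binding site.

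The windows of 4 genes show these matches in capitals. Among expressed genes (at least 10 CPM in either library, as set out below), Cox6a1 and Atp5k are those of the set with the highest and the lowest log2 ratio of slimming over control, Uqcr11 carries both an NRF1 and an ETS match, and Cox8a is the most abundant gene of the set.
Cox6a1 (chr5:115348909-115349208, minus strand): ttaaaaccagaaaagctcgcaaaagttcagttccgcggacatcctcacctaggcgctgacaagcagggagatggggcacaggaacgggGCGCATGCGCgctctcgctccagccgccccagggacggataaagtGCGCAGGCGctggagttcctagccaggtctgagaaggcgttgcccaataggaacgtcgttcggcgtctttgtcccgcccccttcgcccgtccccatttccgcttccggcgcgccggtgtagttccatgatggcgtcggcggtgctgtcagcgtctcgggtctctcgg
Atp5k (chr5:108434350-108434649, minus strand): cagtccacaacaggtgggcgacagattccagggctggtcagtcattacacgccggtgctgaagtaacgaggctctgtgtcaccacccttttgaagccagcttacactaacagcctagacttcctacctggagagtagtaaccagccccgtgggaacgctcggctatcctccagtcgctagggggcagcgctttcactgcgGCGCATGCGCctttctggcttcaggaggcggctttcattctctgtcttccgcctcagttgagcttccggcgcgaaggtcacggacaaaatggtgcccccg
Uqcr11 (chr10:80406772-80407071, minus strand): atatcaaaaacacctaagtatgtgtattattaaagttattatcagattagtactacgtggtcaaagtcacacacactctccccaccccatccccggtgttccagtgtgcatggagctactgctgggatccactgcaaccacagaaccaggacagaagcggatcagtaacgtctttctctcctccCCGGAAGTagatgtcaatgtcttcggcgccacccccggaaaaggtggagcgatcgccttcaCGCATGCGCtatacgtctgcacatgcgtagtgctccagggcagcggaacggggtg
Cox8a (chr19:7217567-7217866, minus strand): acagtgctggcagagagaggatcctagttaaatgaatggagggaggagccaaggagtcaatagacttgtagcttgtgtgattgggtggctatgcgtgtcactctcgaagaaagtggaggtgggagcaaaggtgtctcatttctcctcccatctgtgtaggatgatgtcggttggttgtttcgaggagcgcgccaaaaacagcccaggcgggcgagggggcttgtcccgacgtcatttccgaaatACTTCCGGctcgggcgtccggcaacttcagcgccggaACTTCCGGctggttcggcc
Positions are counted from the start of transcription, with -1 as the last base before it. In Cox6a1 the NRF1 letters begin at -162 and -161 on opposite strands, where they overlap, and again at -117. In Atp5k an overlapping pair begins at -50 and -49. Uqcr11 has the ETS letters at -66 and the NRF1 letters at -5, and Cox8a has the ETS letters at -6 and again at 32.

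The NRF1 letters were found in genes at both ends of the comparison. They stood in the windows of Uqcrc1, Uqcr11, Cycs, Cox6a1, Atp5c1, Atp5g2, Atp5g3, Atp5h, Atp5k, Atp5l and Atp5o. The 5 of these that were expressed had log2 ratios from -1.11 to 1.02 with a median of 0.63, and the 10 expressed genes whose windows lacked the letters ranged from -0.72 to 0.91 with a median of 0.28. The ranges overlapped over most of their length.

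The libraries held 20947962 counts (slimming) and 20242289 counts (control), so that 3 counts, the most that a count of 0 allows, are 0.143 and 0.148 CPM, the level of a gene relative to the size of its library. All 12 oocyte markers had counts in both libraries and together gave 99311 and 101126 CPM, most of it from Gdf9 and H1foo. Single markers differed more than this sum. Zp3 (log2 1.03), Zp1 (0.94) and Zp2 (0.81) were higher in the slimming library, and Figla (-0.77, 47 and 76 counts) was lower. The other listed oocyte markers had log2 ratios from -0.12 to 0.25. Cumulus and granulosa markers summed to 532 CPM in the slimming library, where 4 of 14 had counts, and to 529 CPM in the control library, where 8 of 14 had counts. Serpine2 and Cyp19a1 gave most of this sum. Inha, Inhba, Tnfaip6 and Cyp11a1 were at 0 in the slimming library only, and Amh, Fshr, Foxl2, Ptgs2, Ptx3 and Star were at 0 in both. Immune markers summed to 27.6 and 45.2 CPM with counts for 5 and 11 of 12 genes, led by H2-Aa, with Laptm5 next in the slimming and Cd68 in the control library. Tyrobp, Fcer1g, Adgre1, Csf1r, Lyz2 and C1qa were at 0 in the slimming library only and Cd74 in both. Red blood cell markers summed to 1.24 and 0.840 CPM, almost all of it Epb42, with Hba-a1, Hbb-b1, Hbb-bs and Alas2 at 0 in both and Slc4a1 at 0 in the slimming library. The part of other cells in the results below was not tested.

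The 36 genes together took 0.490% of all slimming counts and 0.407% of all control counts. The limit of 10 CPM in either library holds for 5714 genes and for 20 of the 36. Of these 20, 19 reached 10 CPM in both libraries, and Atp5f1 passed through the slimming library alone. The log2 ratio of slimming over control, taken after scaling the libraries, had a median of 0.28 over the 20 (1.21-fold), of 0.32 over the 19 and of 0.02 over all expressed genes. Compared with that median of 0.02, the ratio was higher for 14 of the 20 and lower for 6.

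Few of the 20 differed by a large factor. Cox6a1 was at least 2-fold higher, as were 2.73% of all expressed genes, and Atp5k was at least 2-fold lower, as were 1.94%. At a limit of 1.5-fold, 6 of the 20 were higher, against 10.3% of all expressed genes, and 2 were lower, against 7.16%. The 95% counting interval of the ratio lay above a ratio of 1 for 12 of the 20, against 37.7% of all expressed genes, and below it for 3, against 35.1%. For the other 5 it included 1. These intervals hold counting error only, and PCR copies were not separated from molecules.

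**Figure D1:**
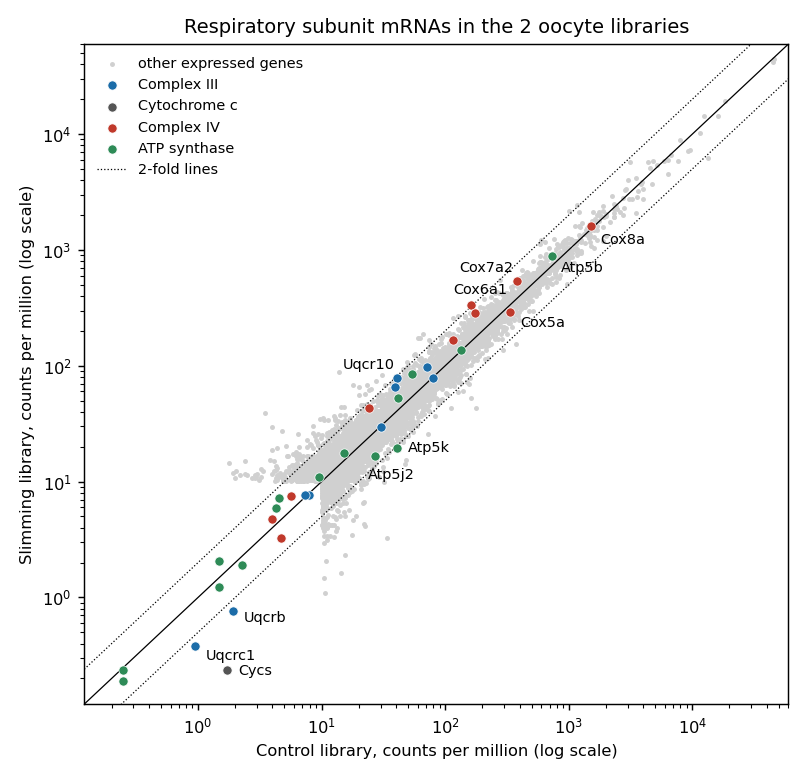
CPM of the control library (horizontal, log scale) and the slimming library (vertical, log scale) for the 5714 expressed genes (grey) and the genes of complex III, cytochrome c, complex IV and ATP synthase (coloured). The solid line marks equal values and the dotted lines 2-fold differences, and Cox7c, with 0 counts in the slimming library, is not drawn. Cox6a1 (334 against 161 CPM) and Atp5k (19.4 against 41.0 CPM) lie at the 2-fold lines, and Cycs, Uqcrc1 and Uqcrb lie below them at under 2 CPM.

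Complex III, or cytochrome bc1 complex, has a core, of which 1 listed gene was expressed, and small subunits, of which 4 were. Of the core, Uqcrc2, a core protein of the matrix side, had 78.2 CPM (slimming) and 79.7 CPM (control), with a log2 ratio of -0.06 (interval -0.16 to 0.04). Cyc1, which holds heme c1, had 7.64 and 7.36 CPM (log2 0.02, interval -0.31 to 0.35). Uqcrfs1, the Rieske iron-sulfur protein, had 159 counts in each library (log2 -0.08, interval -0.41 to 0.25). All 3 intervals included a ratio of 1. Uqcrc1, the other core protein, had only 8 and 19 counts, or 0.382 and 0.939 CPM (log2 -1.28, interval -2.73 to -0.07). The interval of Uqcrc1 lay below a ratio of 1 but spans more than 2 log2 units.

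The small subunits that surround this core were higher in the slimming library for 3 of the 4 that were expressed, and the 4 had a median log2 ratio of 0.57. Uqcr10 (ENSMUSG00000059534, chromosome 11) had 1650 slimming counts, 78.8 CPM, and 830 control counts, 41.0 CPM. It was 1.88-fold higher (log2 0.91, interval 0.79 to 1.03). Uqcr11 (ENSMUSG00000020163, chromosome 10) had 1387 and 797 counts, 66.2 and 39.4 CPM, and was 1.65-fold higher (log2 0.72, interval 0.59 to 0.85). Both ratios are among the 4 highest of the 20 expressed genes. Uqcrh, the acidic hinge protein at which cytochrome c1 meets cytochrome c, had 98.0 and 71.8 CPM (log2 0.42, interval 0.32 to 0.51). Uqcrq (ENSMUSG00000044894, chromosome 11) had 616 and 615 counts, 29.4 and 30.4 CPM (log2 -0.08, interval -0.24 to 0.09), and is among the 4 lowest. Uqcrb, a small subunit near the quinone site, had 16 and 39 counts (log2 -1.34, interval -2.30 to -0.49). Its transcript is repeated over 68.6% of its length in 3 other genes, all pseudogenes, so that its count depends on how reads with several matches were assigned, which is not given in the sources used here.

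Over the 5 expressed genes of complex III the median log2 ratio was 0.42, but with the 4 sparse genes included it was -0.06. The direction of this median therefore rests on leaving out Uqcrc1, Uqcrb, Uqcrfs1 and Cyc1.

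Cytochrome c mRNA was sparse. Cycs, the cytochrome c of somatic cells, had 5 slimming counts and 35 control counts, 0.239 and 1.73 CPM. Its log2 ratio of -2.77 (interval -4.60 to -1.53) is the lowest of those given here, on few counts. Cyct, the testis form, had 40 and 43 counts, 1.91 and 2.12 CPM (log2 -0.18, interval -0.84 to 0.47). Cyct made up 88.9% of the cytochrome c counts for slimming (95% exact interval 75.9 to 96.3%) and 55.1% for control (43.4 to 66.4%). The intervals do not overlap, and they hold counting error only. Per transcript length, where the longer Cycs transcript weighs less, the Cyct share was 97.4% and 85.4%. Stretches of the Cycs transcript, 35.0% of its length, recur in 53 annotated genes.

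In complex IV, or cytochrome c oxidase, 7 of the 11 nuclear genes were expressed and 6 of these had a higher level in the slimming library. The median log2 ratio of the 7 was 0.49 (1.41-fold). Cox6a1 (ENSMUSG00000041697, chromosome 5), the widely expressed form of a small membrane subunit, had 6993 slimming counts and 3268 control counts. This is 334 against 161 CPM, 2.02-fold higher (log2 1.02, interval 0.96 to 1.08). Cox4i1 (ENSMUSG00000031818, chromosome 8), the subunit through which ATP regulates the enzyme, had 902 and 492 counts, 43.1 and 24.3 CPM, and was 1.73-fold higher (log2 0.79, interval 0.63 to 0.96). Both had intervals well above a ratio of 1.

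Of the other abundant genes of the complex, Cox6b1, which faces cytochrome c on the outer side, had 283 and 175 CPM (log2 0.66, interval 0.60 to 0.72). Cox6c, a membrane subunit, had 166 and 115 CPM (log2 0.49, interval 0.42 to 0.57). Cox7a2, the widely expressed form of subunit 7A, had 541 and 382 CPM (log2 0.47, interval 0.43 to 0.51). These 3 genes lay between 1.39-fold and 1.58-fold higher. Cox8a, the smallest subunit and the most abundant mRNA of the 36, had 1618 CPM (slimming) and 1515 CPM (control), with a log2 ratio of 0.06 (interval 0.04 to 0.09). That difference of 1.04-fold changes sign when the trend of the ratio with transcript length is removed (log2 -0.09) or that with GC content (log2 -0.04). Cox5a (ENSMUSG00000000088, chromosome 9), a matrix-side subunit that binds thyroid hormone T2, was the exception among the 7 expressed genes. It had 6069 and 6760 counts, 290 and 334 CPM, and was 1.18-fold lower (log2 -0.24, interval -0.29 to -0.19).

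The 4 genes of complex IV under 10 CPM went in both directions. Cox5b, the zinc-binding partner of Cox5a, had 156 and 114 counts (log2 0.37, interval 0.01 to 0.73). Cox7b had 100 and 80 counts (log2 0.24, interval -0.20 to 0.68). Cox7a2l, a factor that joins complex III to complex IV in supercomplexes, had 68 and 95 counts (log2 -0.56, interval -1.03 to -0.10). Cox7c had no slimming count and 3 control counts, too few for a ratio, and 58.3% of its transcript is repeated in other genes. Cox5a and Cox5b, which sit together in the complex, thus had ratios of opposite sign.

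Several subunits of complex IV have a second gene with its own tissue range, and the oocyte libraries used them unequally. Cox6b2, known as the testis form of subunit 6B, had 18580 slimming counts and 11872 control counts, 887 and 586 CPM (log2 0.57, interval 0.53 to 0.60). It supplied 75.8% of the subunit 6B counts for slimming (exact interval 75.3 to 76.4%) and 77.0% for control (76.3 to 77.6%), with Cox6b1 supplying the rest. Per transcript length the Cox6b2 share was 71.9% and 73.1%. Both genes were higher in the slimming library. The intervals of the Cox6b2 share overlap only from 76.3 to 76.4%, and such an overlap does not show that the shares are equal. For the other subunits the form of most tissues held nearly all counts. Cox6a2, the heart and muscle form of subunit 6A, had 129 and 55 counts, or 1.81% and 1.66% of the counts of that subunit. Cox4i2, the lung form of subunit 4, had 0 and 3 counts against 902 and 492 for Cox4i1. Cox8c, a testis form of subunit 8, had 16 and 6 counts. Cox7a1, the heart and muscle form of subunit 7A, Cox7b2 and Cox8b had no count in either library, which allows up to 3.

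**Figure D2:**
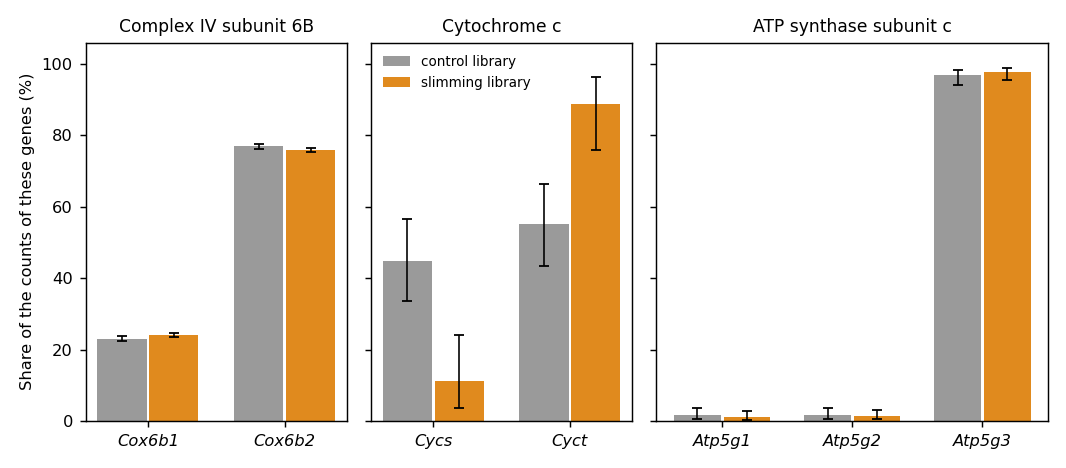
Share of the counts, in percent, that each alternative gene supplied for complex IV subunit 6B, cytochrome c and ATP synthase subunit c, in the control library (grey bars) and the slimming library (orange bars), with exact 95% binomial intervals as error bars. Cox6b2 supplied 77.0% and 75.8% and Atp5g3 96.8% and 97.6% in the control and slimming libraries, while the wide intervals of Cycs and Cyct come from 78 and 45 counts.

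ATP synthase has a soluble F1 head, a ring of c subunits in the membrane, a peripheral stalk and small membrane subunits, and its 15 genes were spread over both directions. The 8 expressed genes had a median log2 ratio of 0.18 (1.14-fold). It was 0.10 without Atp5c1 and Atp5f1, whose transcripts are repeated in other genes over at least 50% of their length. In the F1 head, Atp5b, the catalytic beta subunit, had 886 CPM (slimming) and 734 CPM (control), with a log2 ratio of 0.24 (interval 0.21 to 0.27). Atp5a1, the alpha subunit, had 137 and 134 CPM (log2 0.00, interval -0.07 to 0.08). The pair that forms the catalytic hexamer was thus 1.18-fold higher for beta, while the interval of alpha included a ratio of 1. Atp5c1, the gamma subunit that turns inside the head, had 84.7 and 53.7 CPM (log2 0.63, interval 0.52 to 0.74), although 55.7% of its transcript recurs in 2 pseudogenes. Atp5d, the delta subunit at the foot of this rotor, had 152 and 91 counts (log2 0.66, interval 0.28 to 1.05), below 10 CPM. Atp5e, the epsilon subunit beside it, had 52.5 and 41.2 CPM (log2 0.32, interval 0.19 to 0.45). The 3 genes of the central rotor all had intervals above a ratio of 1, as had 37.7% of all expressed genes, and Atp5d is not among the expressed ones. With the length trend removed, the ratios were 0.52 for Atp5c1, 0.51 for Atp5d and 0.17 for Atp5e, the last below its interval.

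The c ring, through which protons pass, is built from 1 protein that 3 genes encode with different import sequences. Atp5g3 held 97.6% of their slimming counts (exact interval 95.6 to 98.9%) and 96.8% of their control counts (94.3 to 98.5%). It had 373 and 307 counts, 17.8 and 15.2 CPM (log2 0.20, interval -0.02 to 0.42). Atp5g1 had 4 and 5 counts and Atp5g2 5 and 5. Both have transcripts repeated in other genes, over 59.5% and 100% of their length, whereas no repeat was found for Atp5g3.

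The peripheral stalk, which holds the head against the rotor, was sparse in both libraries. Atp5f1, the b subunit, had 228 and 192 counts, 10.9 and 9.49 CPM (log2 0.17, interval -0.12 to 0.45). Atp5o, the subunit that confers oligomycin sensitivity, had 125 and 86 counts (log2 0.46, interval 0.05 to 0.87). Atp5h, the d subunit, had 43 and 30 counts (log2 0.43, interval -0.27 to 1.16). Of these 3, the interval of Atp5o alone lay above a ratio of 1. Atp5j, coupling factor 6, had 40 and 46 counts (log2 -0.28, interval -0.93 to 0.36). Over at least 64.6% of their length, the transcripts of Atp5f1, Atp5h and Atp5o recur in other annotated genes. For Atp5f1 and Atp5o these include genes that overlap them, such as Wdr77 and another Atp5o entry.

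Of the 3 small membrane subunits, Atp5k and Atp5j2 were lower in the slimming library. Atp5k (ENSMUSG00000050856, chromosome 5), the e subunit, which helps pair ATP synthases into dimers, had 406 slimming counts and 829 control counts. This is 19.4 against 41.0 CPM, 2.16-fold lower (log2 -1.11, interval -1.29 to -0.94). Atp5j2 (ENSMUSG00000038690, chromosome 5), the f subunit, had 352 and 548 counts, 16.8 and 27.1 CPM, and was 1.65-fold lower (log2 -0.72, interval -0.92 to -0.52). Both intervals lay below a ratio of 1. Atp5l, the g subunit, had 26 and 30 counts (log2 -0.28, interval -1.10 to 0.52), and 86.8% of its transcript recurs in 11 other genes. Summed over the 3 genes, the membrane subunits had 37.4 CPM (slimming) and 69.5 CPM (control), whereas the 5 F1 genes summed to 1168 and 968 CPM.

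**Figure D3:**
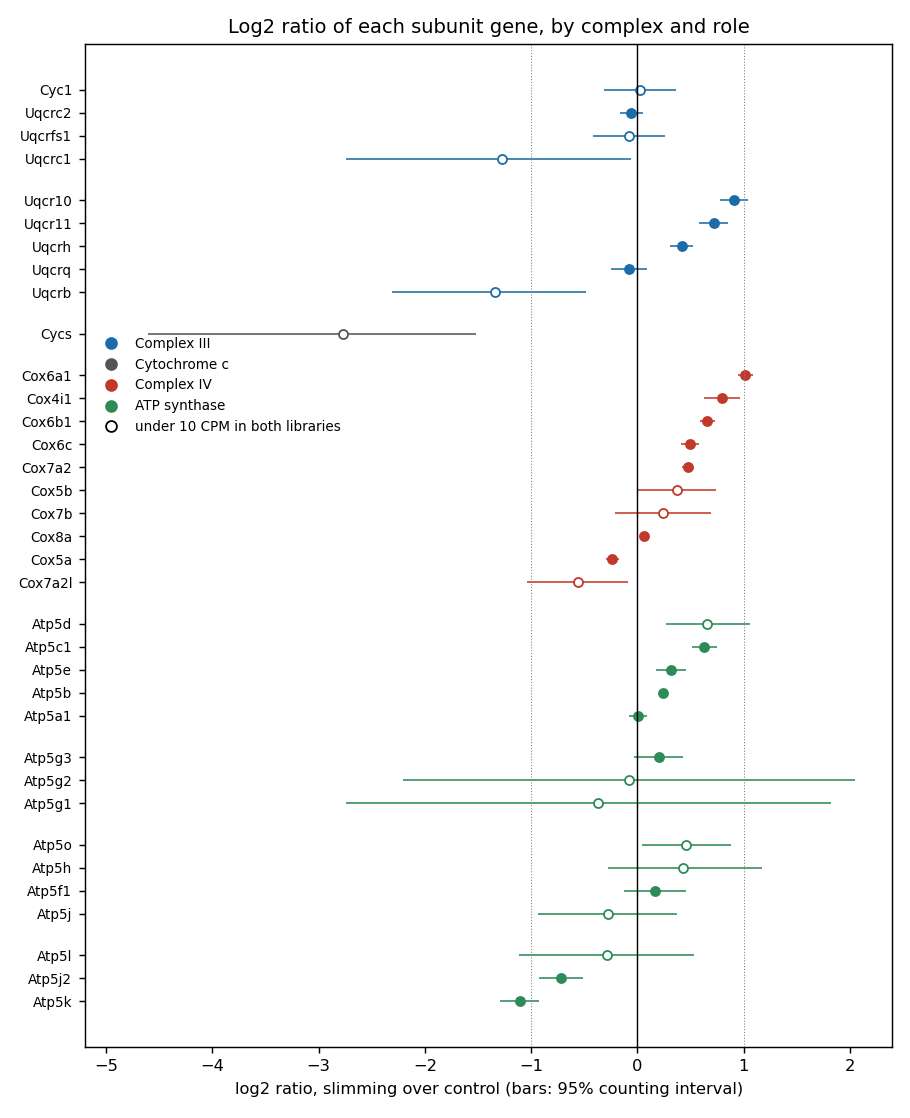
Log2 ratio of slimming over control (horizontal) for 35 of the 36 genes, grouped from top to bottom as complex III core, complex III small subunits, cytochrome c, complex IV, and the F1 head, c ring, stalk and membrane subunits of ATP synthase; bars are 95% counting intervals, dotted lines 2-fold differences and open circles genes under 10 CPM in both libraries. Cox7c has too few counts for a ratio. The widest intervals belong to the sparse genes, and the 2 filled points left of -0.5 are Atp5j2 and Atp5k.

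The authors' deposited table marks genes at a p-value of 0.001, from a comparison that sets the read counts of both libraries against each other, without replicates. By the marks of the authors' deposited table, 12 of the 20 expressed genes are marked as higher in the slimming library, against 32.5% of all expressed genes, and 3 are marked as lower, against 24.6%. The 3 marked as lower in the authors' deposited table are Atp5k, Atp5j2 and Cox5a. Of the genes under 10 CPM, the authors' deposited table also marks Cycs as lower and Atp5d as higher.

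Repeats are frequent among the 16 genes under 10 CPM in both libraries. Of the 36 genes, 9 have at least 50% of their transcript repeated at 95% identity or more in other genes, namely Uqcrb, Cox7c, Atp5c1, Atp5g1, Atp5g2, Atp5f1, Atp5h, Atp5o and Atp5l. They make up 7 of the 16 sparse and 2 of the 20 expressed genes. Repeats below that limit stood in Uqcr10 (43.8%), Cox5a (42.0%), Uqcr11 (38.4%), Cox6c (38.1%) and Atp5k (33.5%), all expressed. Smaller ones stood in other expressed genes. The gene with the repeat of Uqcr10 had 154 slimming and 39 control counts, and the 2 with those of Uqcr11 had 260 and 104. The median level of the 9 was 1.24 CPM (slimming) and 1.48 CPM (control), against 43.1 and 39.4 CPM for the other 27. The part of read assignment in these low counts was not tested. Genes that overlap the same locus were counted as repeats and were not separated from copies elsewhere. Examples are Wdr77 for Atp5f1, Gm30934 for Atp5l and another Atp5o entry for Atp5o. Exons of Uqcrc2, Uqcrb, Cox4i1, Cox5a, Cox6c, Atp5a1, Atp5d, Atp5f1, Atp5j, Atp5o and Atp5l overlap a gene on the opposite strand, and without stated use of strand their reads cannot be told apart from those of that gene.

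Per kilobase of transcript, the order of the 36 genes was nearly the same in the 2 libraries (Spearman's rho 0.98 over 36 genes, which share their libraries and lengths). In CPM per kilobase, Cox8a was the most abundant at 2941 (slimming) and 2755 (control). Cox7a2 followed at 821 and 579, Cox6b1 at 799 and 496, Cox6a1 at 585 and 283, Atp5b at 463 and 383 and Cox5a at 449 and 518. Complex IV genes thus hold most of the highest levels. Within complex III the order was Uqcrh (244 and 179), Uqcr10 (181 and 94.5) and Uqcr11 (149 and 88.5), with Uqcrc1 last at 0.231 and 0.568. Within ATP synthase, Atp5k ranked 2 of 15 in the control library at 151 and 4 of 15 in the slimming library at 71.3, behind Atp5e (125) and Atp5c1 (72.7). The median per-length level was 41.3 and 42.1 in complex III, 274 and 190 in complex IV and 7.79 and 5.91 in ATP synthase. With 1 library per group, neighbours in this order have no spread by which to separate them. The scale also assumes reads along the whole transcript, which was not tested for libraries primed at the poly(A) tail.

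**Figure D4:**
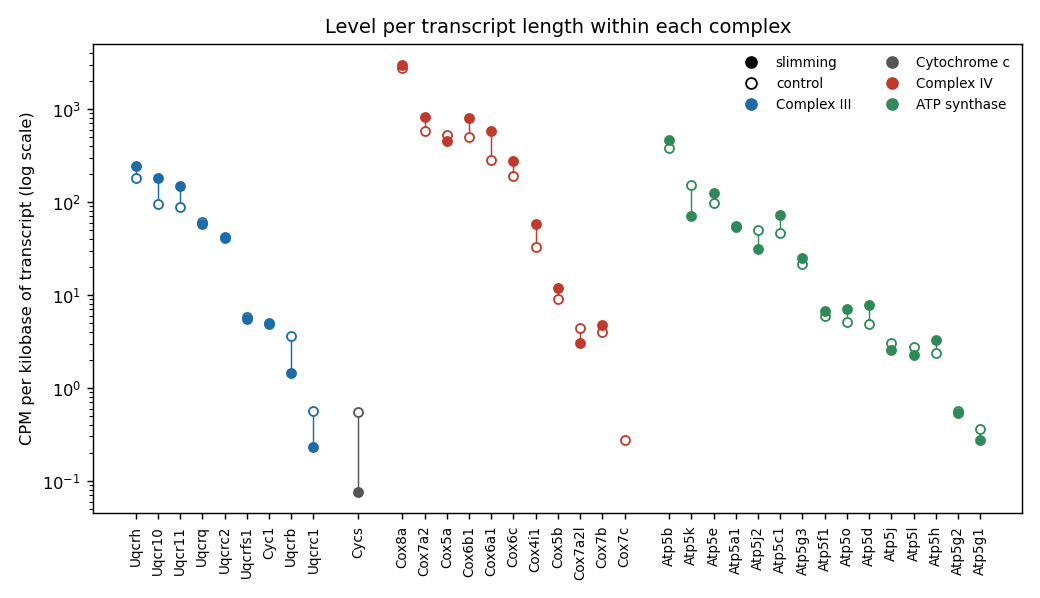
CPM per kilobase of transcript (vertical, log scale) for the 36 genes, ordered within each complex by the control library; filled circles are the slimming library and open circles the control library. Cox7c has no filled circle because its slimming count is 0. Cox8a stands highest at 2941 and 2755, and within each of the 3 complexes the sparse genes lie far below the abundant ones.

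Transcript length moved with the log2 ratio. Of the 20 expressed genes, 16 fall in the shortest of 5 equal groups of expressed genes, with transcripts of 67 to 1256 bases. Other genes of that size had a median log2 ratio of 0.16, and the longest of the 5 groups had -0.07. The 16 subunit genes had a median of 0.44. After removal of the running median over length, the median of the 20 was 0.19, with 0.26 for complex III, 0.32 for complex IV and 0.06 for ATP synthase, and 3 genes instead of 6 remained at least 1.5-fold higher. The share of all expressed genes at that limit was not computed with the trend removed. After the removal 12 of the 20 genes had a positive value and 8 a negative one. The short genes on the negative side were Atp5k (-1.25), Atp5j2 (-0.87), Cox5a (-0.42), Uqcrq (-0.23), Cox8a (-0.09) and Atp5g3 (-0.02), and the longer ones were Uqcrc2 (-0.08) and Atp5a1 (-0.02). On the positive side, the values of Cox6c (0.32), Cox7a2 (0.28), Uqcrh (0.26) and Atp5e (0.17) were smaller than their ratios without the removal by more than 1.5 times. The part of length in these ratios is measured only by that removal, and its source was not tested. Over all expressed genes, the standard deviation of the log2 ratio was 0.53 at a mean of 10 to 30 CPM. It was 0.40 at 30 to 100 CPM, 0.36 at 100 to 300 CPM, 0.28 at 300 to 1000 CPM and 0.32 from 1000 CPM. The level of 30 to 100 CPM holds 8 of the 20 genes. Of these, Uqcr10, Uqcr11, Cox4i1, Atp5c1 and Atp5k had ratios larger in size than the spread. Uqcrh (0.42) lay close to it, and Atp5e (0.32) and Uqcrc2 (-0.06) were smaller. The ratio of Cox5a is smaller than the spread at its level as measured (-0.24) and larger with the length trend removed (-0.42), and that of Cox6a1 is larger both ways (1.02 and 0.87). The spread is that of the ratios as measured, and none was computed with the length trend removed.

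**Figure D5:**
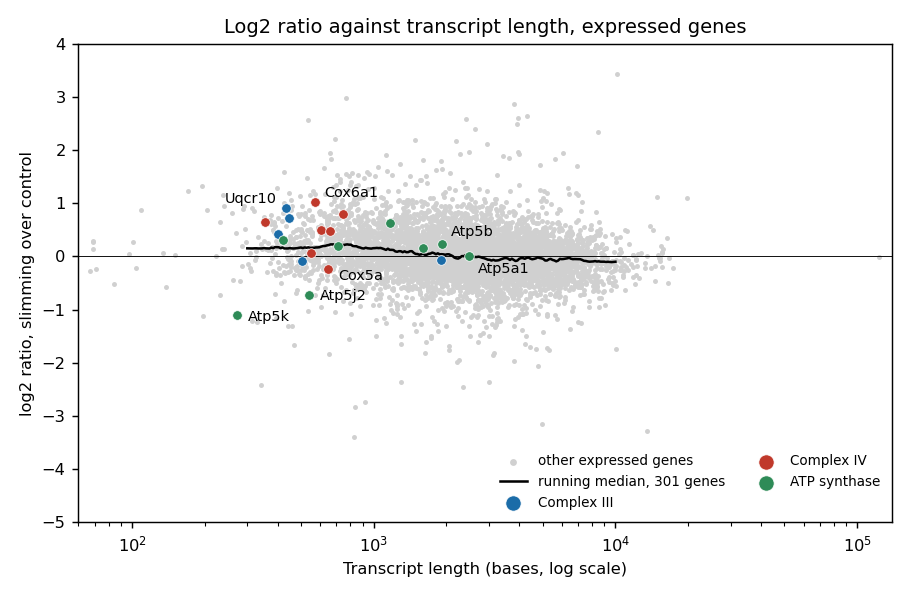
Log2 ratio of slimming over control (vertical) against transcript length in bases (horizontal, log scale) for the 5595 expressed genes with a length (grey), with their running median as a line and the 20 expressed subunit genes coloured by complex. The line falls from the short to the long transcripts; 12 of the 20 coloured points lie above it and 8 below, with Atp5k and Atp5j2 the farthest below.

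Of the 6 subunits of the same complexes that mitochondrial DNA encodes, 2 were expressed, and both had lower levels in the slimming library. The mRNA of mt-Cytb, the cytochrome b of complex III, had 940 and 1061 CPM (log2 -0.21, interval -0.23 to -0.18). The mRNA of mt-Co1, the catalytic subunit of complex IV, had 284 and 368 CPM (log2 -0.40, interval -0.45 to -0.35). The other 4 were sparse, with 26 counts in each library for mt-Co2, 48 and 71 for mt-Co3, 33 and 44 for mt-Atp6 and 2 and 7 for mt-Atp8. Repeats in other genes were not searched for these 6 genes, and the part of read assignment in their counts was not tested. Both abundant mitochondrial mRNAs thus had ratios of the opposite sign to the median of the expressed nuclear genes of the same complexes. For complex III this rests on the filter, because the median over all 9 of its nuclear genes was -0.06. Over all 11 nuclear genes of complex IV the median was 0.37.

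Further proteins of these complexes lie outside the 36 genes. Ndufa4, a protein now counted with complex IV, had 373 and 305 CPM (log2 0.26, interval 0.21 to 0.30). Atpif1, which inhibits ATP hydrolysis by ATP synthase, had 121 and 188 counts, 5.78 and 9.29 CPM (log2 -0.71, interval -1.06 to -0.38). The ATP synthase membrane protein 2010107E04Rik had 120 and 108 CPM (log2 0.12, interval 0.04 to 0.20). Usmg5, another, had 29 and 18 counts, and Atp5s had 5 and 0. The inhibitor was thus lower on a sparse count, in the direction of Atp5k and Atp5j2.

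Assembly factors, the proteins that build these complexes, went in both directions. Of 31 listed, 28 were matched in the table and 10 were expressed, 5 with a positive and 5 with a negative log2 ratio (median 0.16, or 0.38 over the 9 that passed in both libraries). The 6 expressed factors of complex IV had a median of 0.49, as had its expressed subunits. With the length trend removed the medians were 0.43 for these factors and 0.32 for the subunits. The 6 factors were Coa3 (24.5 and 12.4 CPM, log2 0.95), Surf1 (0.62), Coa5 (0.56), Cox18 (0.43), Cox14 (0.38) and the heme A enzyme Cox10 (1464 and 1493 CPM, log2 -0.06). The 3 expressed factors of complex III, Uqcc1, Uqcc2 and Ttc19, had ratios of -0.44, -0.27 and -0.16. Ttc19 (9.79 and 10.7 CPM) passed 10 CPM through the control library alone, and its interval (-0.44 to 0.13) included a ratio of 1. Among factors under 10 CPM, the differences past 2-fold with the largest size were those of Coa6 (1 and 17 counts), Sco1 (35 and 4), Coa7 (68 and 19) and Uqcc3 (18 and 5).

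Of the neighbouring complexes, complex I gave a median log2 ratio of 0.64 over its 21 expressed nuclear subunits, 17 of them with a positive ratio. At least 1.5-fold higher were 11 of the 21, against 10.3% of all expressed genes. Of these 21, Ndufs5, Ndufv2 and Ndufa8 passed 10 CPM through the slimming library alone, and over the other 18 the median was 0.57, with 14 positive ratios and 9 genes at least 1.5-fold higher. With the length trend removed the median was 0.50 over the 21 and 0.43 over the 18. The largest differences of complex I past 2-fold were in sparse genes, Ndufc1 (2 and 13 counts), Ndufv1 (101 and 27), Ndufb10 (63 and 17) and Ndufs8 (68 and 21). Complex II, with Sdha (277 and 336 CPM, log2 -0.31) and Sdhc (15.3 and 20.8 CPM, log2 -0.48) expressed, gave -0.40. Its other genes were under 10 CPM in both libraries. Sdhb went the other way, with 130 and 72 counts (log2 0.77, interval 0.35 to 1.21), and Sdhd had 14 counts in each library (log2 -0.08). The medians of the expressed genes of complexes III (0.42) and IV (0.49) and of ATP synthase (0.18) lay between those of complexes I and II. Whether these medians differ beyond the spread between oocyte pools could not be tested with 1 pool per group.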

How the data were processed

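Messenger RNA of 2 pools of 9 metaphase II oocytes was primed with oligo(dT), amplified in 18 and then 14 PCR cycles and sequenced on a SOLiD 4 instrument, per the labels' protocols. The authors deposited raw read counts per Ensembl gene, and the submitters' processing notes name mm9 as the build. The aligner, counting program, use of strand and handling of reads with several matches were not given in the sources used here. Also deposited by the authors were a log2 ratio, a scaled log2 ratio and a z-score, a score of the difference between slimming and control per the file headers. The p-value, also deposited, rests on the reads of 1 library per group. Blank entries (18210 of 36227 genes) were read as 0.

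Symbols, transcript lengths and exon overlaps came from GENCODE vM21 (GRCm38), and 16913 of 18017 genes with counts matched a symbol. The length is that of the coding transcript of median length. Scaling used the TMM method of edgeR 4.0.16 (R 4.3.3), with factors of 1.01 for slimming and 0.989 for control, and 0.5 was added to each count for the log2 ratio. CPM values use the total counts. Intervals are exact Clopper-Pearson 95% intervals of the slimming share of a gene's counts. Repeats were hits of at least 50 bases and 95% identity by blastn 2.17.0 against the annotated transcripts of other gene identifiers. Both strands and genes overlapping the same locus were included. The ratio and interval script was tested on simulated data. No test of the groups was run, and how far oocyte pools vary is not known from 1 pool per group.

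All 36 genes are named, and 1 marker gene is not reported here. The 4 highest and the 4 lowest expressed genes, those at least 2-fold apart and the alternative genes of a subunit are given in full. Of other lists, up to 4 genes past 2-fold with an interval excluding a ratio of 1 were named. Those given for their level, as oocyte markers by their ratio, as genes of complex II or as expressed factors were chosen after their values were seen. The genes, lists and thresholds were chosen with earlier results of these data known. Alternatives were other scalings (total count, DESeq2 1.42.0 size factors, upper quartile), an added count of 5, removal of the length or GC trend, no filter, and a mean of at least 50 CPM. A further alternative left out genes with at least 50% of their transcript repeated, and genes with smaller repeats were kept.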

Additional observations from a re-analysis of the deposited data

How the results depend on the processing

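The median log2 ratio of the subunit genes stayed above 0 under every setting tried, from 0.11 to 0.47. Without a filter (36 genes) it was 0.11, with -0.059 for complex III, the reverse of 0.42, and 0.37 for complex IV. Then 6 genes were at least 1.5-fold and 5 at least 2-fold lower, and 7 were at least 1.5-fold and 1 at least 2-fold higher. The 5 include Cox7c, whose 0 and 3 counts are too few for a ratio. With a mean of at least 50 CPM (13 genes) the median of the set was 0.47, with 0.57 for complex III. At that limit 0 genes were at least 1.5-fold or 2-fold lower, since Atp5k and Atp5j2 fall below that level. With the length trend removed it was 0.19, with 0.26 for complex III and 0.32 for complex IV, 3 genes at least 1.5-fold and 0 at least 2-fold higher. With the GC trend removed complex IV had 0.41 and 0 genes were at least 2-fold higher, as under upper quartile scaling; Cox6a1 lies at that limit. Cox8a turned to -0.086 with the length trend and to -0.037 with the GC trend removed. Leaving out genes with at least 50% of their transcript repeated took ATP synthase from 0.18 to 0.10. Removing the length trend took ATP synthase to 0.06 and Cox5a from -0.24 to -0.42. Under total count scaling, DESeq2 size factors and an added count of 5, each of these counts stayed within 1.5 times its value and each median kept its sign. Shares of all genes past 1.5-fold or 2-fold were computed for the main setting only. Counts of genes under the other settings therefore have no such share beside them. No paired analysis was possible because each group is 1 library. Depth limits the 16 genes under 10 CPM, and the spread between oocyte pools is unknown.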
